A study of Mus musculus with 6 samples.

Results

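The 10 genes described here are Tcf7, Lef1, Foxp1, Foxo1, Bach2, Satb1, Ets1, Myb, Id3 and Nsg2, measured in naive CD8 T cells from wild type mice and from mice without LAIR-1. They were taken by symbol from the table of raw counts, and all 10 were found among its 14515 genes. Of these, 9 encode regulators of transcription, and Nsg2 encodes a vesicle protein that is used as a marker of naive T cells. The study sorted 100000 naive CD8 T cells from the spleen of each of 3 wild type (Lair1+/+) and 3 LAIR-1-deficient (Lair1-/-) mice and sequenced total RNA as 1 library per mouse. Sorting was by surface proteins, among them CD45, CD3 and CD8 as present and CD44 as absent. The genotype is given for the mouse as a whole; age, sex, strain, treatment and the part of Lair1 missing from the mutant allele are left unstated by the labels.

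A naive T cell is a resting cell that has not met its antigen, and its state is kept by a set of transcription factors that hold it in the lymphoid organs, keep it alive and keep it from dividing. TCF-1 (Tcf7) and LEF-1 (Lef1) bind DNA through a high mobility group box and act with beta-catenin or with Groucho corepressors, and both are turned down when CD8 T cells become effectors. FOXO1 drives genes of homing and survival such as the interleukin 7 receptor, and is moved out of the nucleus by AKT after antigen receptor signals. LAIR-1 binds collagens and dampens activation of the immune cells that carry it, and the comparison asks whether resting cells differ without it, before any stimulation.

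Library totals over genes ranged from 7974206 to 9187017 counts in wild type and from 5519748 to 7296424 in Lair1-/- mice. Levels are given as CPM (counts scaled to a common library size of 1e6) after scaling the libraries by the TMM method, so that depth is taken out. Lair1 had 58, 32 and 43 counts in wild type mice 1 to 3, and Lair1-/- mice 1 to 3 had 2, 1 and 1, a log2 fold change of -4.58 (edgeR quasi-likelihood test, adjusted p = 0.00255). Without wild type mouse 1 the adjusted p of Lair1 was 0.0592, and without mouse 1 of both groups it was 0.0712. Genes of CD8 T cells were abundant in every library, with Cd8b1 at 1516 ± 55.8 and Cd3e at 1375 ± 151 CPM in wild type (SD, n = 3). The 6 listed genes of CD4 and regulatory T cells, all in the table, summed to between 5.80 and 12.6 CPM per library, and the 8 listed B cell genes in the table to between 29.0 and 35.6 CPM. The 9 listed macrophage and monocyte genes in the table summed to between 12.5 and 18.2 CPM in wild type. Their sums in Lair1-/- libraries lay between 10.9 and 12.9 CPM. Of this list, Hmox1 did not overlap between the genotypes (means 5.41 and 1.96 CPM for wild type and Lair1-/-, log2 fold change -1.48). Its edgeR unadjusted p was 0.000474 and its p adjusted over all genes 0.99993, so it did not pass. The other tested genes of the list were C1qb (3.28 and 2.50 CPM), Cd68 (3.21 and 3.51 CPM) and Csf1r (1.25 and 1.51 CPM). Their log2 fold changes were -0.40, 0.12 and 0.33, with 95% intervals that reached both signs. The 2 listed gamma-delta T cell genes in the table, Sox13 and Zbtb16, summed to at most 0.449 CPM. The 6 listed genes of NK and innate lymphoid cells in the table summed to between 3.74 and 7.77 CPM. For neutrophils the 3 genes in the table summed to at most 4.47 CPM, and for erythroid cells and platelets 5 genes to at most 5.93 CPM. The 8 dendritic cell genes summed to between 84.0 and 136 CPM, with the genotypes overlapping. Most of this came from H2-Aa (34.9 to 52.0 CPM), Cd74 (24.1 to 43.5 CPM) and H2-Ab1 (20.5 to 43.8 CPM). Itgax, Flt3, Zbtb46, Xcr1 and Siglech were each at 2.05 CPM or less in every library. The 11 genes of memory and effector CD8 T cells in the table summed to between 429 and 512 CPM, with the genotypes overlapping. Nkg7 alone held 336 to 399 CPM of this, and no other gene of that list exceeded 52.5 CPM (Il2rb). The part of other cells in the results below was not tested. In these bulk libraries, fewer cells that express a gene and less RNA of it per cell cannot be told apart.

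All 10 genes passed the filter on low counts, and none of them was called different between the genotypes. Over all 9565 genes tested, 0.0105% were called at an adjusted p under 0.05, which is Lair1 alone, against 0 of the 10, each of which had an adjusted p of 0.99993 in edgeR. An unadjusted p under 0.05 was reached by Myb and Nsg2, 2 of the 10, where 3.25% of all genes tested reached it by edgeR. DESeq2 and limma-voom each called 0 of the 10 and put 2 of them at an unadjusted p under 0.05, against 2.27% and 3.23% of all genes tested. The wild type and Lair1-/- libraries did not overlap for the same Myb and Nsg2, where 8.38% of all genes tested had groups that did not overlap. Fold changes (Lair1-/- over wild type) were positive for 3 of the 10 and negative for 7, with a median of -0.06 on the log2 scale. Over all genes tested the median was 0.00, with 4802 positive and 4763 negative. For all 10 genes the 95% interval excluded a change of 2-fold either way, against 85.9% of genes tested, and for 9 of the 10 it excluded 1.5-fold, against 63.2%. Low counts widen such intervals, and these shares of all genes tested were not matched for level. All of the 10 but Myb lay above the median gene tested, which was at 19.7 CPM in wild type.

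**Figure D1:**
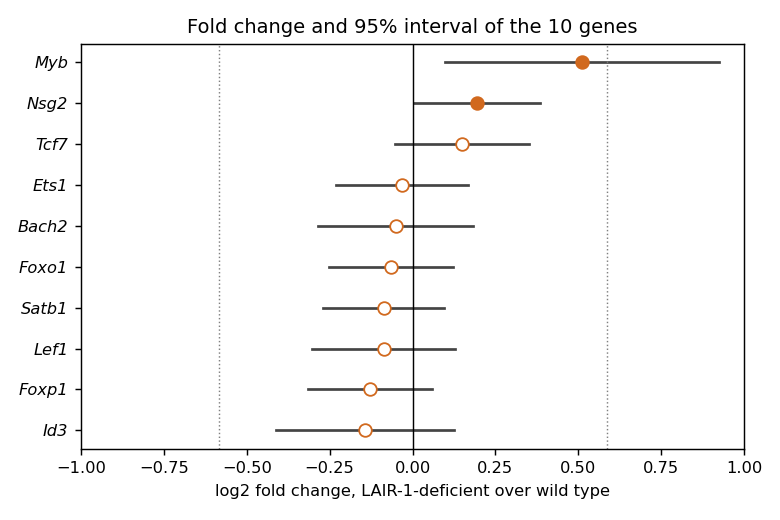
Log2 fold change of each gene, Lair1-/- over wild type (x axis), with its 95% interval from edgeR as a line; filled points mark genes whose 2 groups of 3 libraries do not overlap, and dotted lines mark 1.5-fold in either direction. Myb (0.51) and Nsg2 (0.19) have intervals above 0, the other 8 intervals cover 0, and only the interval of Myb crosses a dotted line.

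Lef1 and Tcf7 are paralogs that encode the T cell members of the TCF/LEF family. Lef1 (ENSMUSG00000027985.14, plus strand of chromosome 3, 131110471 to 131224356 in GRCm38) was at 1081, 1331 and 1280 CPM in wild type mice 1 to 3. In Lair1-/- mice 1 to 3 it was at 1272, 1198 and 1006 CPM. The lowest library was Lair1-/- mouse 3 and the next lowest was wild type mouse 1, so the genotypes overlapped. The highest libraries were wild type mice 2 and 3. Its log2 fold change was -0.09 (SE 0.10, 95% interval -0.30 to 0.13). It was 0.004 without Lair1-/- mouse 3, -0.03 without wild type mouse 2, -0.17 without wild type mouse 1, -0.16 without Lair1-/- mouse 1 and -0.25 (unadjusted p = 0.0223 in edgeR) without mouse 1 of both groups.

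Tcf7 (ENSMUSG00000000782.15, minus strand of chromosome 11, 52252371 to 52283014) was among the steadiest of the genes within wild type, at 197.5, 191.9 and 202.2 CPM. Lair1-/- mice 1 to 3 had 215, 242 and 200.2 CPM. Lair1-/- mouse 3 lay inside the wild type range and the other 2 above it. Its fold change on the log2 scale was 0.15 (SE 0.10, 95% interval -0.05 to 0.35), and it was 0.07 without Lair1-/- mouse 2, the highest library. Counts of Lef1 over counts of Tcf7 in the same library, which no scaling of libraries can move, came to 5.47, 6.93 and 6.33 for wild type mice 1 to 3 and to 5.92, 4.96 and 5.03 for Lair1-/- mice 1 to 3. These ratios overlapped between the genotypes through Lair1-/- mouse 1. The counts are per gene, and the long and short forms of TCF-1 and LEF-1, which differ in whether they can bind beta-catenin, were not resolved.

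These factors act by binding short stretches of DNA, so the sequence before the starts of the genes was searched for such letters. RefSeq promoter sequence (GRCm38.p6) was matched for 9 of the 10 genes, in 20 windows of 250 bases before a start. Ets1 had no promoter entry and was not searched. The letters CTTTGA, which TCF-1 and LEF-1 bind, were present on either strand in 3 of these 20 windows, against 13.8% of all 32851 windows. The letters CCGGAAG, bound by ETS1 and its relatives, were present in 2 of the 20, against 6.91% of all. The forkhead letters TGTTTAC and the letters TGANTCA, which BACH2 shares with AP-1, were present in 0 of the 20, against 3.17% and 6.75% of all windows. AACNGNC, a form of the MYB motif, was in 9 of the 20 windows (27.7% of all) and the E-box CAGNTG in 7 (44.8% of all). Windows of 1 gene can overlap, some matches of different motifs share bases, and a match is only a match of letters. The stretches with the TCF/LEF and ETS letters are shown on the strand of the gene, with the match in capitals, which here is the reverse complement of the letters given above.
Lef1, chr3:131156104-131156129, plus strand, match begins 180 bases before a start: aaatacatggTCAAAGgaaaataggt
Lef1, chr3:131156164-131156189, plus strand, match begins 120 bases before the same start: ttgtctgttcTCAAAGtcaggtcttg
Foxp1, chr6:99266704-99266729, minus strand, match begins 204 bases before a start: aagatcacatTCAAAGgtagatctcc
Bach2, chr4:32417332-32417357, plus strand, match begins 93 bases before a start: tgtgttgttcTCAAAGttgagtagag
Bach2, chr4:32417413-32417434, plus strand, match begins 12 bases before the same start: cgggctttccCTTCCGGtctag
Tcf7, chr11:52282604-52282630, minus strand, match begins 25 bases before a start: gctggagtcaCTTCCGGtgccctgacc
All of these stretches lie inside the genes as GENCODE annotates them, and the counts do not tell from which start a transcript came. Exons of Lef1 (Gm43352), Foxo1 (Gm20402) and Satb1 (Gm6934) overlap gene models on the opposite strand that have no row in the table.

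Neither of the forkhead factors was called. Foxp1, which restrains the interleukin 7 receptor and holds naive T cells in quiescence, was at 376, 381 and 402 CPM in wild type and 377, 354 and 330 CPM in Lair1-/- mice 1 to 3. Of the Lair1-/- libraries, only mouse 1 reached the wild type range. The log2 fold change of Foxp1 was -0.13 (SE 0.09, 95% interval -0.31 to 0.06), and it was -0.08 without Lair1-/- mouse 3. The gene (ENSMUSG00000030067.17, minus strand of chromosome 6, 98925338 to 99522721) is the longest of the 10 and has 31 annotated transcripts. Its exons overlap those of Gm20696, a gene model on the same strand with no row in the table, so their reads cannot be told apart.

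Foxo1 (ENSMUSG00000044167.6, plus strand of chromosome 3, 52268336 to 52353221) was at 354, 322 and 373 CPM in wild type mice. The Lair1-/- libraries lay together at 337, 337 and 328 CPM, inside the wild type range. On the log2 scale the fold change was -0.07 (SE 0.09, 95% interval -0.25 to 0.12), and it was -0.02 without wild type mouse 3 and -0.12 without wild type mouse 2. Counts of Foxp1 over counts of Foxo1 were between 1.06 and 1.18 in wild type and between 1.01 and 1.12 in Lair1-/- libraries, and these ranges overlapped.

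FOXO1 target and kinase genes had no call. All 22 listed genes were tested, 11 with a positive and 11 with a negative fold change, 0 were called and the median log2 fold change was -0.003. Klf2, a quiescence factor that drives expression of the sphingosine receptor S1pr1, had 1246 ± 219 CPM in the wild type group and 1341 ± 533 CPM in the Lair1-/- group (SD, n = 3 each). Txnip, an inhibitor of glucose uptake, was at 971 ± 65.8 and 984 ± 32.7 CPM, and Btg1, an antiproliferative gene, at 848 ± 56.7 and 876 ± 125 CPM. The large SD of Klf2 came from Lair1-/- mouse 1, at 1956 CPM, while mice 2 and 3 of that genotype had 1019 and 1048 CPM.

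Bach2, a repressor that competes with AP-1 factors at shared sites and holds back effector genes, was at 83.2, 72.3 and 89.4 CPM in wild type. Lair1-/- mice 1 to 3 had 73.5, 83.8 and 79.4 CPM, all inside the wild type range. Its log2 fold change was -0.05 (SE 0.11, 95% interval -0.28 to 0.18), and it was 0.02 without wild type mouse 3, -0.01 without Lair1-/- mouse 1, -0.13 without wild type mouse 2, -0.09 without Lair1-/- mouse 2 and 0.01 without mouse 1 of both groups. The gene (ENSMUSG00000040270.16) sits on chromosome 4, bases 32238804 to 32586108, plus strand, and its exons overlap those of Bach2os on the opposite strand, which has no row in the table. Since the strand setting of the counting is not given, reads of Bach2os could be counted as Bach2. Among partners and competitors of BACH2, 8 of the 10 listed genes were tested, 5 with positive and 3 with negative fold changes and 0 called. They were led by the AP-1 genes Junb (1856 ± 657 and 1886 ± 736 CPM), Jund (1429 ± 353 and 1733 ± 847 CPM) and Jun (1268 ± 648 and 1484 ± 1190 CPM).

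Satb1, an organiser of chromatin that is needed for T cell development, was at 489, 476 and 537 CPM in wild type and 464, 482 and 469 CPM in Lair1-/- mice 1 to 3. Wild type mouse 3 was the highest of the 6 libraries, and the other 5 lay within 464 to 489 CPM. The log2 fold change was -0.09 (SE 0.09, 95% interval -0.27 to 0.10), and it was -0.04 without wild type mouse 3. Satb1 (ENSMUSG00000023927.15) sits on chromosome 17, bases 51736187 to 51833290, minus strand. Its exons overlap those of Gm36931, a gene model on the same strand with no row in the table, so their reads cannot be told apart.

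Ets1, a factor needed for survival of T cells and expression of the interleukin 7 receptor, was at 359.95, 443 and 409 CPM in wild type mice. In Lair1-/- mice 1 to 3 it was at 392, 415 and 379 CPM. The wild type libraries held both the lowest and the highest value. Its log2 fold change was the smallest in size of the 10, at -0.03 (SE 0.09, 95% interval -0.23 to 0.17), and it was 0.04 without wild type mouse 2, -0.11 without wild type mouse 1, -0.07 without Lair1-/- mouse 2 and -0.004 without Lair1-/- mouse 3. The gene (ENSMUSG00000032035.15) sits on chromosome 9, bases 32636221 to 32757820, plus strand.

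Myb, a factor of lymphoid progenitors that is low in resting T cells and is known to support stem-like CD8 T cells, had the largest fold change of the 10. Wild type mice 1 to 3 had 87, 84 and 121 counts of it, and Lair1-/- mice 1 to 3 had 95, 85 and 140. Scaled to depth, these were 10.97, 9.19 and 13.6 CPM against 13.7, 15.1 and 19.1 CPM. All Lair1-/- libraries were above all wild type libraries, but Lair1-/- mouse 1 exceeded wild type mouse 3 by less than the counting error, since their 95% Poisson intervals were 11.1 to 16.7 and 11.3 to 16.2 CPM. Such intervals cover counting error only. On the log2 scale the fold change was 0.51 (SE 0.20, 95% interval 0.10 to 0.92). In edgeR's quasi-likelihood test the unadjusted p was 0.0185 and the p adjusted over all genes 0.99993, so Myb did not pass. Its fold change on the log2 scale was 0.35 without Lair1-/- mouse 3, the highest library, and 0.38 without wild type mouse 2, the lowest. The gene (ENSMUSG00000019982.15) sits on chromosome 10, bases 21124935 to 21160984, minus strand, and its exons overlap those of the antisense gene Gm26577, which has no row in the table.

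Partners of ETS1 and MYB had no call. All 12 listed genes were tested, 6 positive and 6 negative, 0 were called and the median log2 fold change was -0.01. Bcl11b, a factor of T cell commitment, was at 341 ± 11.3 and 327 ± 33.6 CPM, Ikzf1, which encodes Ikaros, at 339 ± 19.8 and 359 ± 9.93 CPM, and Cbfb, the partner of the RUNX factors, at 171 ± 14.4 and 172 ± 9.04 CPM in wild type and Lair1-/- cells (SD, n = 3 each).

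Id3 encodes an inhibitor that binds E proteins and keeps them from DNA, and in CD8 T cells it marks naive and memory precursor cells. It was at 53.2, 49.6 and 43.8 CPM in wild type and 42.1, 40.6 and 49.8 CPM in Lair1-/- mice 1 to 3. Lair1-/- mice 1 and 2 were below all wild type libraries, and Lair1-/- mouse 3 was above 2 of them. The log2 fold change was -0.14 (SE 0.13, 95% interval -0.41 to 0.13), and it was -0.24 without Lair1-/- mouse 3, -0.22 without wild type mouse 3, -0.08 without wild type mouse 1 and -0.09 without Lair1-/- mouse 2. Id3 (ENSMUSG00000007872.3) is a short gene of 2259 bp on the plus strand of chromosome 4, from 136143497 to 136145755.

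Id2, the paralog that rises in effector CD8 T cells, had 98.7 ± 13.6 CPM in the wild type group and 90.1 ± 7.504 CPM in the Lair1-/- group (log2 fold change -0.13, 95% interval -0.38 to 0.11). Per kilobase of exon, Id2 was at 40.5 and Id3 at 27.3 CPM per kb in wild type, both above the 4.26 CPM per kb of the median gene tested. The E protein genes Tcf12 (48.0 ± 4.49 and 49.7 ± 3.20 CPM) and Tcf3 (37.1 ± 2.76 and 32.8 ± 5.38 CPM) had no call either. Of 9 listed E proteins and their inhibitors, 5 were tested, 3 positive and 2 negative, and 0 were called.

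Nsg2 (ENSMUSG00000020297.10, plus strand of chromosome 11, 32000463 to 32059202) was at 271, 250.4 and 270 CPM in wild type mice 1 to 3. Lair1-/- mice 1 to 3 had 318, 307 and 280.4 CPM. All Lair1-/- libraries were above all wild type libraries, but counting error covers the gap between the nearest of them, wild type mouse 1 (95% Poisson interval 260.07 to 283 CPM) and Lair1-/- mouse 3 (268 to 293 CPM). Its fold change on the log2 scale was 0.19 (SE 0.09, 95% interval 0.004 to 0.39), with an edgeR unadjusted p of 0.0461 and a p adjusted over all genes of 0.99993, so Nsg2 did not pass. The unadjusted p was 0.178 without wild type mouse 2 and 0.141 without Lair1-/- mouse 1.

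**Figure D2:**
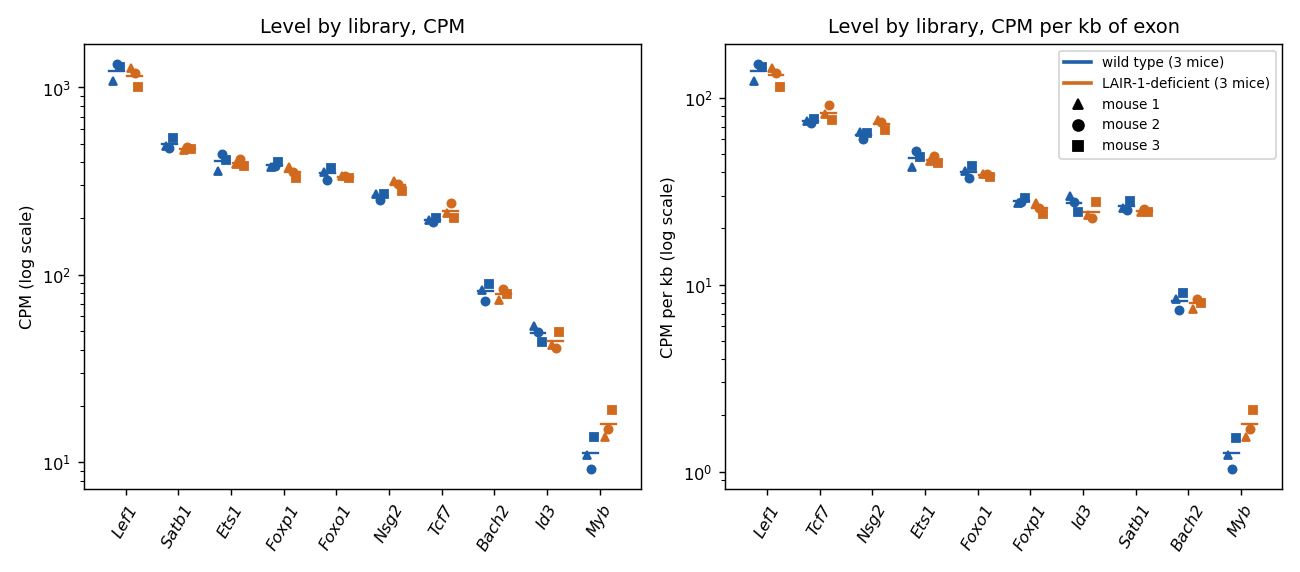
Level of each gene in each of the 6 libraries, in CPM (left) and in CPM per kilobase of annotated exon (right), both on log axes; blue is wild type, orange Lair1-/-, symbols are mouse numbers and bars are group means. Lef1 is highest and Myb lowest on both scales, and the genotypes lie apart only for Nsg2 and Myb.

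Level per length differed widely among the genes. Levels between genes were set side by side as CPM per kilobase of annotated exon, and rank 1 is the highest of the 14314 genes with an annotated length. Lef1 was at 140 ± 15.0 CPM per kb in wild type (rank 286), Tcf7 at 75.1 ± 1.95 (rank 470) and Nsg2 at 63.5 ± 2.81 (rank 559). Ets1 followed at 47.7 ± 4.91 CPM per kb (rank 730) and Foxo1 at 40.3 ± 2.92 (rank 857). Foxp1, Id3 and Satb1 were close together, at 28.1 ± 0.981, 27.3 ± 2.67 and 26.3 ± 1.67 CPM per kb (ranks 1212, 1250 and 1289). Bach2 was lower, at 8.22 ± 0.870 CPM per kb (rank 3217), and Myb lowest, at 1.26 ± 0.247 CPM per kb (rank 7632; SD, n = 3 throughout). The median gene tested was at 4.26 CPM per kb, so 9 of the 10 lay above it and Myb below.

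Neighbours in this order whose 3 wild type libraries overlapped were Ets1 and Foxo1, Foxp1 and Id3, and Id3 and Satb1, and all other neighbours were separate. The first 5 places, Lef1 to Foxo1, and the last 2, Bach2 and Myb, were the same in all 6 libraries, and only Foxp1, Id3 and Satb1 traded places. The order in the middle depended on the length used. By CPM without length, Satb1 was second after Lef1 (501 ± 31.7 and 1231 ± 132 CPM) and Tcf7 seventh (197 ± 5.11 CPM). With the longest transcript in place of all annotated exons, the order was Lef1, Nsg2, Satb1, Tcf7, Ets1, Foxp1, Foxo1, Id3, Bach2 and Myb. The labels do not say whether reads cover whole transcripts or only an end, and for reads of an end CPM without length is the better scale. The exons of the 10 genes add up to between 1791 and 19027 bp, with a median of 8727 bp, against 4163 bp over all genes with a length.

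As a group the 10 genes took up shares of the libraries that overlapped between the genotypes. They held 0.326, 0.351 and 0.361% of all counts in wild type mice 1 to 3, while Lair1-/- mice 1 to 3 had 0.345, 0.354 and 0.315%. Both the wild type and the Lair1-/- group had 1 library near the low end, wild type mouse 1 and Lair1-/- mouse 3, and these were also the libraries with the least Lef1 in their group. Lef1 made up between 32.0 and 37.7% of the counts of the 10 genes.

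The mouse 1 libraries of both genotypes stood apart in immediate early genes. Of 21 tested immediate early genes, which antigen receptor signals are known to induce rapidly, 19 were higher in the 2 mouse 1 libraries (1 of each genotype) than in all 4 others. Over all genes tested, 11.9% had both mouse 1 libraries above the other 4 and 12.1% had both below. Of the 10 genes, 0 were above and 0 below, and with shares of this size over all genes a count of 0 in 10 does not set them apart. Without mouse 1 of both groups the log2 fold change was 0.60 for Myb, -0.25 for Lef1 and 0.17 for Nsg2, with edgeR unadjusted p-values of 0.0144, 0.0223 and 0.108. Lef1 had moved from -0.09 and Foxp1 from -0.13 to -0.20, while Ets1 was at -0.11 and Id3 at -0.05 in that setting. None of the 10 passed adjustment there. For Jun the mouse 1 libraries had 2014 and 2854 CPM, and the other 4 had 702 to 940 CPM. The mean of the 2 mouse 1 libraries minus that of the other 4 lay between -0.16 (Myb) and 0.09 (Nsg2) on the log2 scale for the 10 genes. Within its own group, mouse 1 differed from the mean of the other 2 mice by -0.27 in wild type and 0.21 in Lair1-/- cells for Lef1, and by -0.03 and -0.30 for Myb.

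Some genes listed as FOXO1 kinases, FOXO1 targets or naive T cell genes had both mouse 1 libraries above the other 4. Of 22 FOXO1 kinases and target genes, 6 were above the other 4 libraries in both mouse 1 libraries (Klf2, Btg1, Ccr7, Akt2, Sesn3 and Irs2). Of 21 tested naive T cell genes outside the 10, 6 were above and 1 below. For Klf2 the mouse 1 libraries had 1498 and 1956 CPM, and the other 4 had 1019 to 1138 CPM. Foxo1 itself was at 354 and 337 CPM in the mouse 1 libraries and between 322 and 373 CPM in the others. The genes whose splits are named were chosen after their values were seen.

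**Figure D3:**
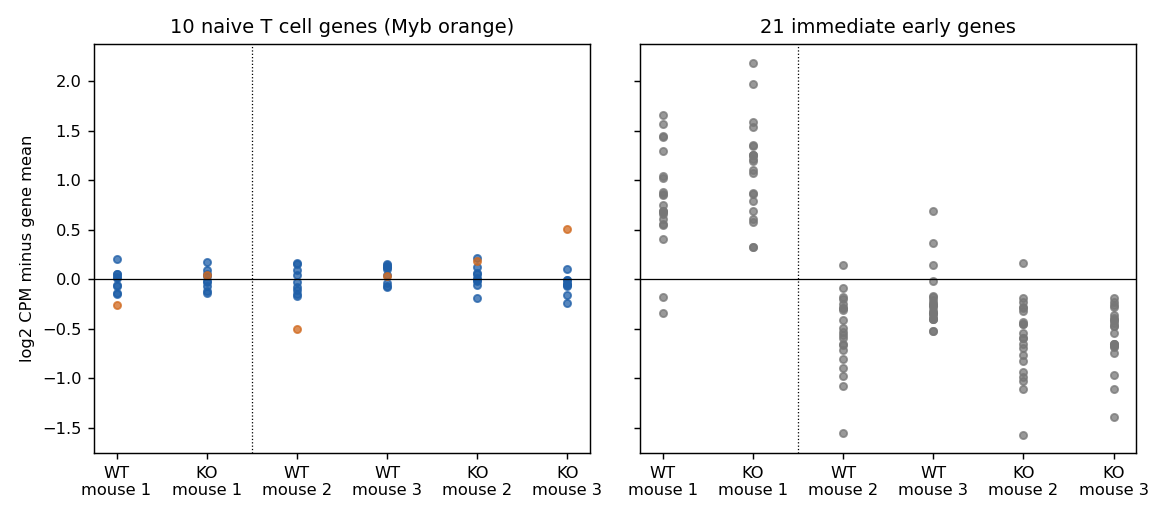
Log2 CPM of each gene minus its mean over the 6 libraries (y axis), by library (x axis, WT wild type and KO Lair1-/-, the 2 mouse 1 libraries left of the dotted line), for the 10 genes on the left and 21 tested immediate early genes on the right; each point is 1 gene. The 10 genes stay within 0.25 of their means except for Myb, which runs from -0.51 to 0.51, while 19 of 21 immediate early genes are higher in both mouse 1 libraries than in the other 4.

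Spread over the 6 libraries, both genotypes together, was below that of the median gene tested for 9 of the 10. The SD of log2 CPM over the 6 libraries was 0.08 for Foxo1 and Satb1, 0.10 for Foxp1 and Ets1, 0.12 for Tcf7 and Bach2, 0.13 for Nsg2 and 0.16 for Lef1 and Id3, against a median of 0.19 over all genes tested. Spread falls with level, so each gene was also set against genes tested within 1.5-fold of its own mean CPM. Against these, 6 of the 10 had a larger SD than most. Foxo1 had a larger SD than 19.6% of such genes, Satb1 than 23.8%, Bach2 than 39.1% and Foxp1 than 41.8%. Ets1 (52.0%), Id3 (52.9%) and Tcf7 (57.0%) were near the middle, Nsg2 was at 67.0% and Lef1 at 79.6% of 54 such genes. Myb had the largest spread, 0.35, more than 91.8% of 2139 genes of like level, and its highest library was 2.08-fold above its lowest. For the other 9 genes the highest library was between 1.16-fold and 1.32-fold above the lowest. A difference between the genotypes adds to this SD, and Myb and Nsg2 were the genes whose groups did not overlap. By edgeR's estimate of variation within groups, Myb was at percentile 63.7 of all genes tested and Nsg2 at 26.3. The others lay between 13.2 (Bach2) and 49.3 (Lef1), and these percentiles were not matched for level.

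**Figure D4:**
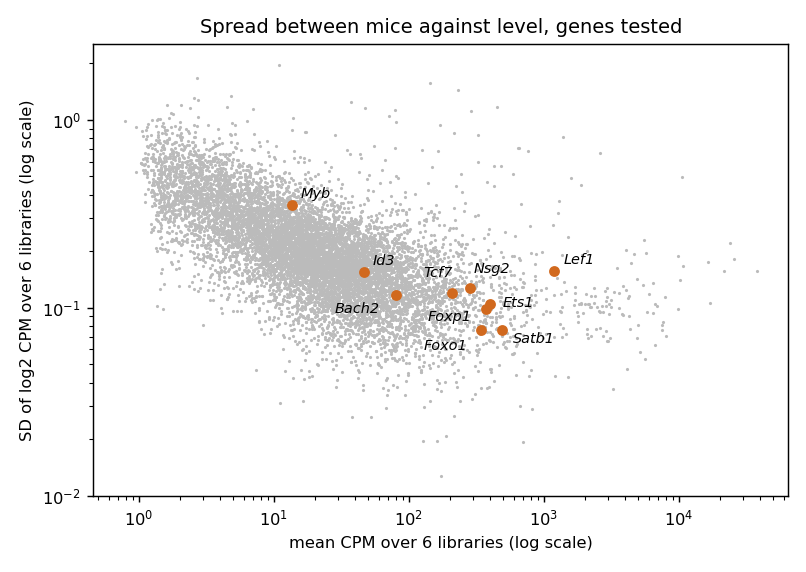
SD of log2 CPM over the 6 libraries (y axis, log scale) against mean CPM (x axis, log scale) for the genes tested (grey, 1 point per gene) and the 10 genes (orange). Myb lies above most genes of its level and Lef1 above most of the few genes as abundant, while Foxo1 and Satb1 lie in the lower part of the cloud.

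Relatives of the 10 genes were looked at next, with none called. Of 24 listed paralogs, 18 were in the table and 14 were tested, 7 with a positive and 7 with a negative fold change, 0 called, with a median log2 fold change of 0.01. The ETS family genes Elf4 (214 ± 34.5 and 248 ± 28.3 CPM), Elf1 (163 ± 23.2 and 149 ± 28.5 CPM) and Fli1 (57.3 ± 4.75 and 59.2 ± 5.81 CPM) had the highest CPM of them besides Id2, without regard to length. Per kilobase of exon, Elf4 (34.8 CPM per kb) and Elf1 (24.2 CPM per kb) were below Ets1 in wild type. Foxp4 was at 32.7 ± 4.13 and 34.5 ± 2.41 CPM, Bach1 at 21.8 ± 1.65 and 20.3 ± 3.16 CPM and Foxo4 at 10.98 ± 2.18 and 10.8 ± 0.415 CPM. The ETS family genes Gabpa (18.8 ± 1.58 and 16.8 ± 3.11 CPM), Elf2 (13.5 ± 3.90 and 14.2 ± 1.49 CPM) and Ets2 (13.1 ± 3.49 and 16.0 ± 3.18 CPM) overlapped between the genotypes, as did Id1 at 1.59 ± 1.05 and 2.99 ± 1.55 CPM. Foxo3, a close relative of Foxo1, was at most at 1.39 CPM in any library, and Foxp3, the factor of regulatory T cells, at most at 3.03 CPM. Mybl1, Mybl2, Foxo3 and Foxo6 were too low to be tested.

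Tcf7l1, a TCF family gene that acts mainly as a repressor, differed between single libraries more than any other tested paralog did in fold, apart from the very low Foxp3. It had 86, 81 and 77 counts in wild type mice 1 to 3, while Lair1-/- mice 1 to 3 had 10, 58 and 15, that is, 10.8, 8.86 and 8.64 CPM against 1.44, 10.3 and 2.05 CPM. Lair1-/- mouse 2 was inside the wild type range, and Lair1-/- mice 1 and 3 were far below it. On the log2 scale the fold change was -1.11 with a 95% interval of -2.88 to 0.67, and Tcf7l1 did not pass. Tcf7l2 was at 3.09 ± 0.495 and 2.97 ± 1.33 CPM.

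Cofactors of TCF-1 and LEF-1 were also without a call. Of 18 listed beta-catenin and corepressor partners, 14 were tested, 6 positive and 8 negative, with a median log2 fold change of -0.01. Aes, a short Groucho-family protein, was at 971 ± 53.7 and 986 ± 80.9 CPM, and Gsk3a, a kinase that marks beta-catenin for destruction, at 342 ± 51.7 and 330 ± 40.1 CPM. Bcl9l, which helps beta-catenin activate genes, had 179, 173 and 170.4 CPM in wild type and 275, 286 and 201 CPM in Lair1-/- mice 1 to 3, without overlap, and did not pass in edgeR (log2 fold change 0.54, 95% interval 0.30 to 0.79, unadjusted p = 0.000223, p adjusted over all genes = 0.99993).

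Genes that oppose the naive state had no call either. Of 16 listed factors of effector differentiation, 9 were tested, 7 positive and 2 negative, with a median log2 fold change of 0.16. Eomes was at 47.2 ± 7.92 and 49.5 ± 9.24 CPM and Hif1a at 43.4 ± 3.10 and 48.2 ± 7.72 CPM. Tbx21, Prdm1 and Zeb2, all drivers of effector cells, were too low to be tested. The 21 tested naive T cell genes outside the 10 had 9 positive and 12 negative fold changes with a median of -0.01, 0 called, led by Klf2, Btg1 and Igfbp4 (783 ± 95.9 and 795 ± 201 CPM).

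Genes whose pattern over the 6 libraries was most like each of the 10 were found by the root mean square difference of log2 CPM after each gene's mean was subtracted, over 6610 other genes at 10 CPM or more. The closest were Ldb1 to Tcf7, Mlxip to Lef1, Hnrnpd to Foxp1, Fyttd1 to Foxo1, Ash2l to Bach2, Smurf2 to Satb1, Tlr1 to Ets1, Rab6b to Myb, Slc39a9 to Id3 and Nol6 to Nsg2. The difference was between 0.02 and 0.03 for 9 of these pairs and 0.13 for Myb and Rab6b. The median difference to all 6610 genes lay between 0.16 (Satb1) and 0.35 (Myb). The second closest were Lrrc57, Afg3l1, Kbtbd2, Bloc1s6, Sh2d1a, St3gal1, Sf3a3, Asb3, Fastk and Arhgef1, in the same order of the 10. These names are a description over 6 libraries only.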

How the data were processed

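Total RNA of naive CD8 T cells was measured in 6 libraries, 1 per mouse. The table deposited by the authors holds raw counts for each gene with 1 column a library. BWA and the build mm10 are named in the submitters' processing notes; annotation, counting tool, strand and molecular identifiers: not given in the sources used here. Per the labels' protocols, libraries were made with TruSeq small RNA primers. Columns were matched to samples by description, and groups came from titles. Of the table's rows, 4 spike-in rows (0 to 4 counts per library in sum) were left out. Between libraries the chi-square per gene was 4.99 to 23.4, so none were duplicates.

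Of 14515 genes, 14314 had 1 match in GENCODE vM21 (GRCm38), 750 through an older symbol, which gave exon lengths and coordinates. Counts were tested in edgeR 4.0.16 (R 4.3.3): filterByExpr with a smallest count of 10, TMM scaling, robust quasi-likelihood F test without covariate, two-sided, Benjamini-Hochberg adjustment over 9565 genes, threshold 0.05. SEs came from the F statistic, and 95% intervals from the SE. Log2 CPM for spreads used a pseudocount of 0.5. Alternatives used DESeq2 1.42.0 and limma 3.58.1. The fit was tested on simulated counts. The members, gene lists and tests were chosen with earlier results of these data known. Named genes are the 10 members, Lair1, the paralogs in the table, genes that pass, and per member the 2 genes closest in pattern. The 3 most abundant genes in wild type of each other list are also named. For CD8 T cells these are 2 of the 3, and for the early genes only Jun and Junb. Other cell types have sums, with levels of single genes for the tested macrophage and monocyte genes and for some dendritic, memory and effector genes. Others were chosen after their values were seen.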

Additional observations from a re-analysis of the deposited data

How the results depend on the processing

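None of the 10 genes was called in any of the 14 alternatives, and at most 2 of them reached an unadjusted p under 0.05. The 14 were RLE size factors, library totals, no count filter, a stricter filter with a smallest count of 30, DESeq2, limma-voom, mouse number as a block, leaving out each library, and leaving out mouse 1 of both groups. The sign of the log2 fold change held in all 14 for Tcf7, Foxp1, Foxo1, Satb1, Myb, Id3 and Nsg2. It turned for Ets1 without wild type mouse 2 (0.039; range leaving out 1 library -0.11 to 0.04), for Lef1 without Lair1-/- mouse 3 (0.0038; -0.17 to 0.0038), and for Bach2 without wild type mouse 3 (0.019; -0.13 to 0.02) and without mouse 1 of both groups (0.0085). Over all genes, 1 was called (Lair1), against 3 with no count filter, 0 with the stricter filter, 0 without mouse 1 of both groups and between 0 and 2 when 1 library was left out; the stricter filter removed Lair1 from the test. The order of levels kept 10 of 10 places by definition, 3 of 10 by CPM without length, 4 of 10 with the longest transcript and between 8 and 10 when 1 wild type library was left out. Mouse numbers did not pair the libraries by the correlation of deviations from group means, which was 0.32 for mouse 1, 0.02 for mouse 2 and 0.07 for mouse 3. Of the 6 libraries, those of mouse 1 correlated best with their own number. With mouse number as a replicate block 1 gene and 0 of the 10 were called, and Myb had a log2 fold change of 0.51 and an unadjusted p of 0.00796 in edgeR. Counting error limits Myb, whose libraries held 84 to 140 counts.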
